A study of Mus musculus with 6 samples.

Results

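Histone H3 lysine 27 acetylation (H3K27ac) was examined at the Cobl and Alg13 loci of O4AID ESCs, which together held the 3 steepest falls of any single H3K27ac peak after addition of indole-3-acetic acid (IAA). All peaks overlapping the annotated gene body of Cobl or Alg13 (GENCODE vM21, GRCm38), or the 20 kb on either side, were taken: 8 peaks at Cobl and 3 at Alg13, 11 of the 31131 peaks in the deposited tables. The loci were picked by the change between uninduced and IAA libraries, so the size of that change at their peaks is given below as a description, with its error and without a test.

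O4AID ESCs are mouse embryonic stem cells of strain 129SV, made from the ZHBTc4 line, with the genotype Oct4-/-, TetOFF Oct4, CAG Oct4AID and CAG Tir1. Their only active Oct4 gene is a transgene under the constitutive CAG promoter whose product carries an auxin-inducible degron, and Tir1 is the plant F-box protein that marks the tagged protein for degradation once IAA, an auxin, is present. Cells of both conditions grew with doxycycline, which keeps the untagged Tet-OFF Oct4 transgene silent, in N2B27 medium with PD03, Chiron and mLIF. H3K27ac ChIP-seq was carried out on 3 independent immunoprecipitations from uninduced cells and 3 from cells given 500 μM IAA for 1.5 h. No ChIP-seq library from IAA-treated cells without the degron on OCT4 was analyzed here, so effects of IAA itself and of OCT4 loss cannot be told apart. In ESCs with the degron on eGFP, the paper reported unchanged H3K27ac after IAA by ChIP-qPCR at the Klf4 and Prdm14 distal enhancers. Cobl and Alg13 were not among the loci shown there. Independent immunoprecipitations need not come from separate cultures, in which case the spread given here is partly technical. In bulk chromatin, acetylation lost from some cells and less acetylation in every cell cannot be told apart.

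H3K27ac marks nucleosomes at active enhancers and promoters, and in ESCs the enhancers with strong H3K27ac are often bound by OCT4 together with SOX2, NANOG, ESRRB and KLF4. Cobl encodes cordon-bleu, an actin nucleator that gathers actin monomers through its WH2 domains and is best known from neurons and from polarized epithelia. Alg13 is an X-linked gene whose product joins ALG14 to form the enzyme that adds the second N-acetylglucosamine to dolichol during assembly of the N-glycan precursor at the endoplasmic reticulum. Neither gene belongs to the pluripotency network by its known function.

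The sequences under the 3 steepest falls are shown here because they carry the finding, followed by the Cobl promoter, most of which lies in the gap between the first-exon peak and the start-proximal peak, whose first bases it shares. Each was read from the GRCm38 genome 5′ to 3′, the peaks on the plus strand and the promoter, from RefSeq (GRCm38.p6), on the minus strand on which Cobl is transcribed. Capitals mark matches on either strand to 6 motifs: the octamer bound by OCT4 (ATGCAAAT), a relaxed octamer (ATGCNAAT), the SOX core (ATTGTT), the ESRRB motif (CAAGGTCA), a KLF motif (GGGTGTGG) and the GC box (GGGCGG). The first window is the last 300 bases of the steepest Alg13 peak, which lie outside annotated exons, the next pair are the central 300 bases of the steepest Cobl peaks, and the last is the 250 bases before the Cobl start.
Alg13 internal peak, chrX:144337364-144337663: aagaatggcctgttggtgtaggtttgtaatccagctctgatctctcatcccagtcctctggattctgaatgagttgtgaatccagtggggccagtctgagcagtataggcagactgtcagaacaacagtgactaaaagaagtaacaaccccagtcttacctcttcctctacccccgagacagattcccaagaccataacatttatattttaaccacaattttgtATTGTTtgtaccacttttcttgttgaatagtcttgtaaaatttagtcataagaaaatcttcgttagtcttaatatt
Cobl upstream peak, chr11:12467835-12468134: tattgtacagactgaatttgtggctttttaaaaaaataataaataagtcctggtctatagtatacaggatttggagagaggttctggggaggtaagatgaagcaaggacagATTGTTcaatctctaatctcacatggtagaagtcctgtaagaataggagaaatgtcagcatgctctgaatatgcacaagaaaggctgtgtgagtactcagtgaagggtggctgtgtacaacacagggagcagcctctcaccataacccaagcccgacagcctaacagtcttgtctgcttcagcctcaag
Cobl start-proximal peak, chr11:12465196-12465495: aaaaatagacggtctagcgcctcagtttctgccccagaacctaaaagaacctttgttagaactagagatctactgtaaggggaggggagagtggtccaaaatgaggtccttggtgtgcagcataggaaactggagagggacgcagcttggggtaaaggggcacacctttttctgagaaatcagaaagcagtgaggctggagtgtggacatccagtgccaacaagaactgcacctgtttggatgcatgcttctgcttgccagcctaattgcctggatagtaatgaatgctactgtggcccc
Cobl promoter, chr11:12464961-12465210: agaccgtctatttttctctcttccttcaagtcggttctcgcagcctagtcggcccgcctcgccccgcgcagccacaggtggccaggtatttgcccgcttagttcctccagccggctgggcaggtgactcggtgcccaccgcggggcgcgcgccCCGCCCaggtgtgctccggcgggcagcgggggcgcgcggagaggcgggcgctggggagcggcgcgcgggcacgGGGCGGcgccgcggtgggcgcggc

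The first and the second window each held 1 SOX core, the start-proximal window held no match to any of the 6 motifs, and the promoter held 2 GC boxes. Over the central 300 bases of all 26457 tested peaks (those at or above 0.5 RPKM in uninduced or IAA-treated cells), 1.13% held the octamer, 2.26% the relaxed octamer, which includes it, 8.5% the SOX core, 2.33% the ESRRB motif, 3.13% the KLF motif and 23.1% the GC box. Over tested peaks marked for a nearby OCT4 peak the shares were 2.62%, 4.98%, 12.4%, 2.70%, 3.00% and 10.9% in the same order. Among the central windows of the 11 Cobl and Alg13 peaks, the SOX core was present in 2, the Cobl upstream peak shown above and an intronic Cobl peak, and none held any other of these words. The match in the Alg13 peak lies outside its central window. Most matches near the Cobl start lay between peaks rather than under them: 2 ESRRB motifs, 2 KLF motifs, 3 SOX cores and 6 GC boxes lay in the gaps, while 1 SOX core and 2 GC boxes lay within a peak. A match says only that the letters are present in the window.

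The peaks also differed in base composition. The steepest Alg13 peak had a GC content of 36.6%, at percentile 0.208 of all tested peaks, and the steepest Cobl peak one of 41.8%, at percentile 2.29. The start-proximal Cobl peak was at 49.7% and the peak beside the Alg13 start at 67.5%, against a median of 52.9% over all tested peaks. The steepest 2 falls came from AT-rich sequence, and the peak at the Alg13 promoter from GC-rich sequence. Lesser falls came from AT-rich sequence too: the outermost Cobl peak, at 41.6% (percentile 2.11), changed by -1.46. A link between base composition and the change was not tested.

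H3K27ac was measured as RPKM (reads scaled to peak length and to library size), and peaks were compared on log2(RPKM + 0.1), which slightly understates the change of low peaks. Libraries held between 31634480 and 39547452 reads, and the median tested peak held 57 to 73 reads in uninduced libraries and 36 to 45 in IAA libraries. The share of reads in tested peaks was 6.58% to 7.08% in uninduced libraries and 4.02% to 5.11% in IAA libraries (lowest in replicate 3), and this shift moves with every change given below. Its part in the changes was not tested, and values within a library, relative to its median peak, are therefore given as well. Of the 8 ESC markers Nanog, Sox2, Esrrb, Klf4, Zfp42, Tfcp2l1, Dppa5a and Tdgf1, 8 had tested peaks within 1 kb of a transcription start. Of the 8 markers of other cells, only Gata6, Sox1 and Pax6 did, at 1.48 to 1.74 RPKM in uninduced cells, and Cdx2, Eomes, Sox17, Foxa2 and T had none.

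Cobl occupies chr11:12236608-12464960 on the minus strand, 228.4 kb in length. Of its 8 peaks, 2 lie within introns and 1 overlaps the first exon, the 5′ UTR and the beginning of the first intron. The near edge of the latter lies 210 bp inside the gene start. The other 5 are intergenic and form a cluster upstream of the start. This cluster and the first-exon peak together span chr11:12463726-12470846, with gaps of 433, 931, 691, 709 and 792 bp between neighbors. The 4 outermost of these 6 peaks carried the authors' mark for an OCT4 peak within 1 kb, taken from published OCT4 ChIP-seq, and the 2 next to the start and the 2 intronic peaks did not.

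**Figure D1:**
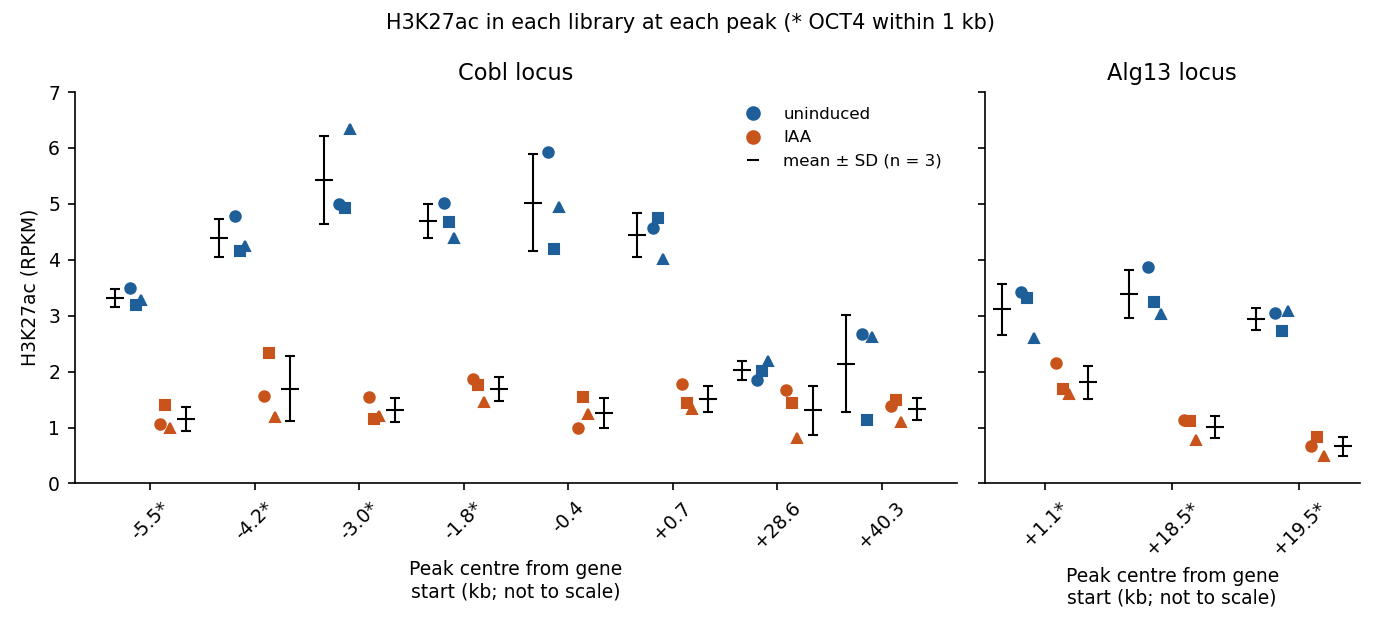
H3K27ac (RPKM, vertical axis) of each of the 11 peaks in each library, ordered by the distance of the peak centre from the gene start in kb (negative is upstream) and marked with an asterisk where OCT4 was mapped within 1 kb. Blue points are uninduced and orange points IAA libraries (circle, square and triangle for replicates 1, 2 and 3), and bars give the mean ± SD of 3 libraries. The 6 Cobl peaks at and upstream of the start and the 2 internal Alg13 peaks on the right show the widest separation, and only the Cobl peak at +40.3 kb overlaps between conditions.

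The steepest Cobl peak lies 2845 bp upstream of the start, at chr11:12467805-12468164, and is OCT4-marked. It measured 5.0, 4.93 and 6.33 RPKM in the uninduced libraries and 1.55, 1.16 and 1.21 RPKM in the IAA libraries. Every IAA library lay far below every uninduced one. The mean went from 5.42 ± 0.789 to 1.30 ± 0.215 RPKM (SD, n = 3), so that 24.1% of the signal was left, a log2 change of -1.98 (SE 0.176). In reads, 215 were counted over the 3 uninduced libraries and 49 over the 3 IAA libraries, and the ratio of summed reads per library size, 23.9%, has an exact 95% interval of 17.1% to 32.7% for counting error only.

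The peak nearest to the start, 223 bp upstream of it at chr11:12465183-12465507, had no OCT4 mark. It measured 5.93, 4.2 and 4.94 RPKM in uninduced libraries and 0.995, 1.54 and 1.25 RPKM in IAA libraries. The groups did not overlap, and the highest and the lowest uninduced value came from replicates 1 and 2. Its mean went from 5.02 ± 0.871 to 1.26 ± 0.272 RPKM (SD, n = 3), a log2 change of -1.92 (SE 0.189) that left 25.1%. This was the only one of the 12 steepest falls in the series without an OCT4 mark. At 324 bp it was also a short peak, and its IAA values rest on 11, 18 and 14 reads.

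The other 4 peaks at and upstream of the start were lower by less than these, with 34% to 38.6% left. The first-exon peak (chr11:12463726-12464750) measured 4.57, 4.75 and 4.01 RPKM in uninduced libraries and 1.77, 1.43 and 1.32 RPKM in IAA libraries, a log2 change of -1.50 (SE 0.172). The peak at chr11:12466438-12467114, OCT4-marked, measured 5.01, 4.68 and 4.39 RPKM and then 1.86, 1.76 and 1.45 RPKM, a change of -1.42 (SE 0.165). In both, replicates of one condition lay close together compared with the gap between conditions. The 2 outermost peaks, at chr11:12468873-12469360 and chr11:12470152-12470846, went from 4.39 ± 0.337 to 1.69 ± 0.585 RPKM and from 3.32 ± 0.160 to 1.15 ± 0.216 RPKM (SD, n = 3), log2 changes of -1.37 (SE 0.201) and -1.46 (SE 0.187).

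The intronic Cobl peaks started lower and moved less. The peak at chr11:12436149-12436572, 28388 bp downstream of the start, measured 1.85, 2.02 and 2.2 RPKM in uninduced libraries and 1.66, 1.44 and 0.819 RPKM in IAA libraries, a log2 change of -0.64 (SE 0.233). The peak at chr11:12424432-12424876 measured 2.68, 1.14 and 2.62 RPKM and then 1.39, 1.50 and 1.10 RPKM, a change of -0.57 (SE 0.262). Uninduced replicate 2 of the latter lay below 2 of the 3 IAA libraries, and this was the only one of the 11 peaks whose conditions overlapped. Both changes depended on single libraries. The first became -0.36 without IAA replicate 3. The second became -0.95 without uninduced replicate 2, -0.37 without uninduced replicate 1 and -0.39 without uninduced replicate 3.

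After IAA the 8 Cobl peaks thus lay at nearly the same height. Their mean levels ranged from 2.02 to 5.42 RPKM in uninduced cells and from 1.15 to 1.69 RPKM in IAA-treated cells. Averaged by peak length, the 6 peaks at and upstream of the start exceeded the 2 intronic peaks of the same library by 1.03, 1.46 and 0.83 on the log2 scale in uninduced libraries and by 0.01, 0.12 and 0.37 in IAA libraries. The difference between the start and the introns was therefore smaller in every IAA library than in any uninduced one. The start group holds the falls that chose the Cobl locus, so this is a description only. The 6 peaks together went from 4.42 ± 0.194 to 1.46 ± 0.185 RPKM, and the 2 intronic peaks from 2.09 ± 0.453 to 1.32 ± 0.308 RPKM (SD, n = 3).

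Alg13 occupies chrX:144317804-144374450 on the plus strand, 56.6 kb in length, and its 3 peaks were all OCT4-marked. The first lies in the first intron beside the start, at chrX:144318219-144319503, and the other 2, separated by 392 bp, lie inside the gene, from 18175 bp downstream of the start. That pair overlaps internal exons of Alg13, some annotated as UTR, and both of its peaks lie within 1 kb of at least 1 further annotated transcript start.

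The steepest fall of the series was at the second peak of this pair, chrX:144336966-144337663. It measured 3.05, 2.72 and 3.08 RPKM in the uninduced libraries and 0.673, 0.835 and 0.497 RPKM in the IAA libraries. Replicates were close in uninduced cells, and the groups were far apart. The mean went from 2.95 ± 0.197 to 0.668 ± 0.169 RPKM (SD, n = 3), which left 22.7%, a log2 change of -2.01 (SE 0.219). The summed reads, 227 against 49, give 22.6% with an exact 95% interval of 16.3% to 30.9% for counting error only. Its neighbor at chrX:144335979-144336574 measured 3.87, 3.24 and 3.04 RPKM and then 1.13, 1.12 and 0.776 RPKM, a change of -1.66 (SE 0.199).

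The peak beside the Alg13 start was lower by less than this pair in the same libraries. It measured 3.43, 3.32 and 2.59 RPKM in uninduced libraries and 2.15, 1.68 and 1.60 RPKM in IAA libraries, a log2 change of -0.75 (SE 0.183) that left 58.1%. The length-weighted mean of the pair stood at 0.00, -0.17 and 0.24 relative to the start peak in uninduced libraries (log2 RPKM difference) and at -1.28, -0.80 and -1.35 in IAA libraries. Peaks inside the gene and at its start were thus level in uninduced cells and apart after IAA. The pair holds the fall that chose the locus, so this difference is a description only.

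Over the whole series, 68.2% of tested peaks were called lower after IAA (limma on log2(RPKM + 0.1), adjusted p under 0.05), 0.0605% were called higher, and in 71.2% the highest IAA library was below the lowest uninduced one. Leaving out 1 library moved the share called lower over a range of 39.2% (without uninduced replicate 1) to 74.1% (without IAA replicate 1), with 46.5% without uninduced replicate 2. Of the 11 Cobl and Alg13 peaks, 10 were called lower and none higher, and 10 did not overlap between conditions. The loci were chosen by this contrast, so nothing is read from these counts. Once each library was centered on its median tested peak, 1.97% of tested peaks were called lower, 8 of the 11 among them: the 6 Cobl peaks at and upstream of the start and the 2 internal Alg13 peaks. The falls that chose the loci still ranked 1, 2 and 3 after centering, so nothing is read from this count either. The same centering turned the split over all tested peaks from 18048 lower and 16 higher into 520 lower and 144 higher.

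**Figure D2:**
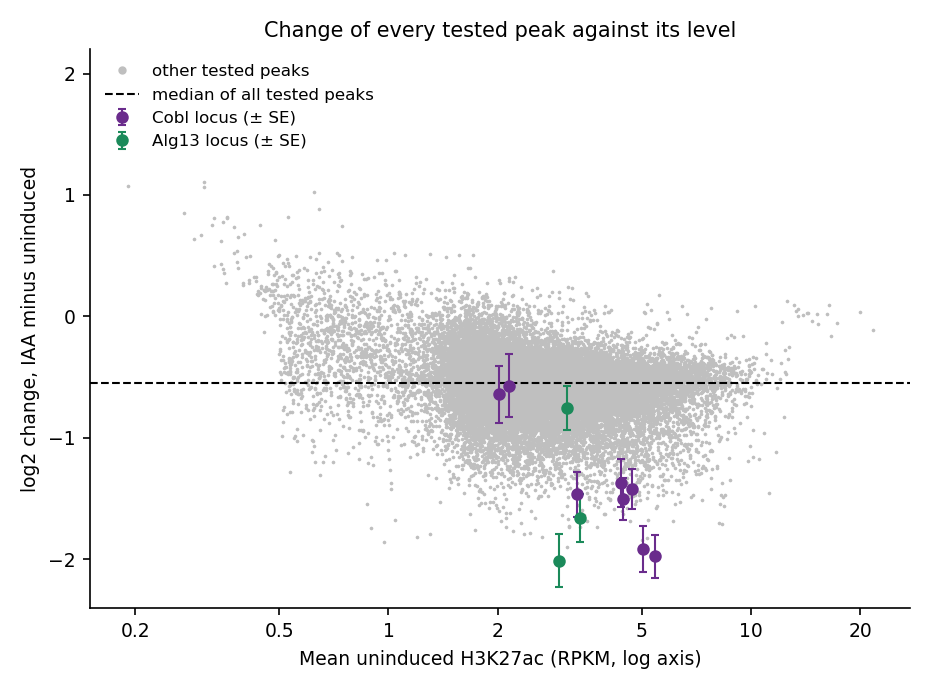
The log2 change of each tested peak (vertical axis, IAA minus uninduced) against its mean uninduced H3K27ac (RPKM, log axis), with the Cobl peaks in purple and the Alg13 peaks in green (bars, SE) over all other tested peaks in gray. The dashed line is the median change of all tested peaks, -0.55. The 3 peaks of the loci near that line are the 2 intronic Cobl peaks and the peak beside the Alg13 start, and the other 8 lie at -1.37 or below.

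The median change of the 11 peaks was -1.46, against -0.55 over all tested peaks and -0.71 over the 4662 tested peaks with an OCT4 mark. The mark was present on 7 of the 11 peaks (63.6%) and on 17.6% of all tested peaks. It goes with the contrast that picked the loci, since 11 of the 12 steepest falls carried it, and neighboring peaks can share 1 OCT4 site, so its share is a description only. In uninduced cells the 6 Cobl peaks at and upstream of the start lay between percentile 72.2 and percentile 93.3 of tested peaks by level, and in IAA-treated cells between percentile 19 and percentile 53.0. The steepest Alg13 peak moved from percentile 64.5 to percentile 3.26.

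The steepest falls were closely ranked. Just outside the 3 largest came a peak 1328 bp from Rnf112 (-1.90, SE 0.245), a low peak 434576 bp from the nearest gene, Armc1 (-1.85, SE 0.340), and a peak in Fzd5, which encodes a Wnt receptor (-1.84, SE 0.269), all OCT4-marked. Neighboring ranks thus differed by less than 1 SE. When 1 library at a time was left out, the steepest Alg13 peak ranked between 1 and 10, the upstream Cobl peak between 1 and 14 and the start-proximal Cobl peak between 3 and 27, so the order within the steepest falls was not resolved by 3 libraries per condition.

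To set the loci against their surroundings, peaks up to 500 kb from each gene body were examined. Around Cobl, 23 of 26 such peaks were tested. Their changes ranged from -1.05 to -0.40 with a median of -0.71, so that none was as steep as any of the 6 Cobl peaks at and upstream of the start. Most of them lay beyond the other end of the gene, 269.8 to 427.0 kb from the gene body, and so far from the start. The tested peaks closest to the start, 55.9, 57.4 and 66.5 kb upstream of it, changed by -1.05, -0.77 and -0.79. The nearest, 55.9 kb upstream at chr11:12520851-12522074, was also the steepest of them, at 4.08 ± 0.399 RPKM in uninduced and 1.92 ± 0.172 RPKM in IAA-treated cells (SD, n = 3; limma adjusted p = 0.000156). The length-weighted Cobl locus stood above these flanking peaks by 0.36, 0.28 and 0.31 (log2 RPKM difference) in uninduced libraries and below them by values of -0.46, -0.40 and -0.59 in IAA libraries. Cobl was picked for falls in this same contrast, so how it stood against its flank is a description only. Around Alg13, both peaks in that range were under the threshold in both conditions, at 0.0996 and 0.0508 RPKM in uninduced cells, so its pair had no tested neighbor to compare with.

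**Figure D3:**
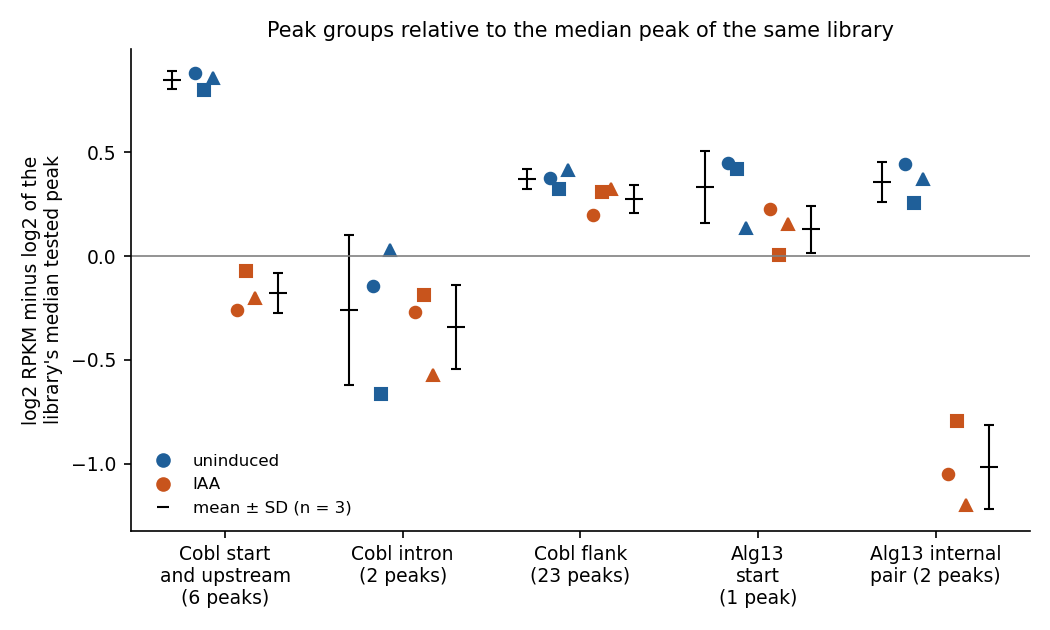
Length-weighted H3K27ac of 5 groups of peaks relative to the median tested peak of the same library (log2 RPKM difference, vertical axis), with points for libraries and bars for the mean ± SD of 3 libraries. The Cobl start group moved from 0.85 to -0.18 and the internal Alg13 pair from 0.36 to -1.01, while the flanking peaks of Cobl moved from 0.37 to 0.28.

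Set against the median peak, which itself was lower by a log2 value of -0.58, the whole Cobl locus changed by -0.90 and the whole Alg13 locus by -0.68. The Cobl start group changed by -1.03 and the internal Alg13 pair by -1.37, whereas the Cobl intronic peaks changed by -0.08 and the peak beside the Alg13 start by -0.20. In the last 2 groups, the IAA values lay within the range of the uninduced values or overlapped it. Within the loci, the larger falls relative to the median peak were at the Cobl start and upstream cluster and at the pair inside Alg13. These groups hold the peaks whose falls chose the loci, so their place is a description only.

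As whole loci, Cobl went from 4.18, 3.78 and 3.92 RPKM to 1.53, 1.57 and 1.19 RPKM and ranked at 17 of 14241 protein-coding genes with a tested peak, by log2 change of the length-weighted mean (-1.47). Alg13 went from 3.43, 3.14 and 2.83 RPKM to 1.51, 1.32 and 1.11 RPKM and ranked at 55 (-1.25). The 16 loci ahead of Cobl held between 1 and 3 peaks each, compared with 8 at Cobl. Windows of neighboring genes overlap, so the ranks count some peaks more than once. Olfr1386 to Olfr1389 tied at -1.55, and Vmn1r219 and Vmn1r220 at -1.54. The profiles nearest to Cobl over the 6 libraries, by Euclidean distance of log2 values relative to the uninduced mean, were those of Vat1l (0.183), Fzd5 (0.214) and Alpl (0.217), the last encoding the alkaline phosphatase used to stain ESCs. Those nearest to Alg13 were Phc1 (0.173), which encodes a Polycomb protein, Ccnyl1 (0.188) and Spry2 (0.201), which encodes an inhibitor of receptor tyrosine kinase signaling.

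The other genes of each pathway were then examined at their promoters, meaning tested peaks within 1 kb of a transcription start. For actin nucleation, 27 genes other than Cobl had 36 such peaks, of which 29 (80.6%, against 68.2% of all tested peaks) were called lower and none higher by limma (0 at an unadjusted p under 0.05 as well), with a median change of -0.55 against -0.55 over all tested peaks. None of the 36 was called lower once libraries were centered on the median peak, against 1.97% of all tested peaks. Changes of single genes below are length-weighted over promoter peaks, and adjusted p-values are those of limma for the longest promoter peak. By promoter mean, the lowest were Spire1, another WH2-domain nucleator (-1.0), Washc1, the WASH subunit that activates ARP2/3 on endosomes (-0.95), and Whamm, which activates it at the Golgi and the ER (-0.92). The 2 Spire1 peaks were OCT4-marked and went from 2.02 ± 0.190 to 1.01 ± 0.233 RPKM (SD, n = 3; adjusted p = 0.00199 for the longer peak).

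The highest in this list were Daam1, a formin of planar cell polarity (-0.24, adjusted p = 0.226), Jmy, a p53 cofactor and nucleator (-0.27, adjusted p = 0.166), and Wasf3, a WAVE protein (-0.27, adjusted p = 0.252), none of which passed the test. Among genes with a role beside Cobl, Pacsin2, a membrane-bending partner of cordon-bleu proteins, went from 2.36 ± 0.255 to 1.49 ± 0.156 RPKM (log2 change -0.67; longest peak -0.73, adjusted p = 0.00922), and Dbnl, an actin-binding adaptor, from 4.42 ± 0.203 to 2.84 ± 0.405 RPKM (-0.64, adjusted p = 0.00434; SD, n = 3). The Cobl paralog Cobll1 and the nucleator Spire2 had no tested promoter peak. All 27 other genes changed less than the Cobl promoter, whose 2 peaks gave -1.66. Outside the list, promoters of some of the 8 ESC markers came close to it. Tfcp2l1 changed by -1.61, Tdgf1 by -1.24, Klf4 by -1.23, Sox2 by -1.15 and Dppa5a by -1.09. Zfp42 changed by -0.90, Nanog by -0.79 and Esrrb by -0.72. The median over the 13 promoter peaks of these markers was -1.07, against -0.55 over all tested peaks.

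**Figure D4:**
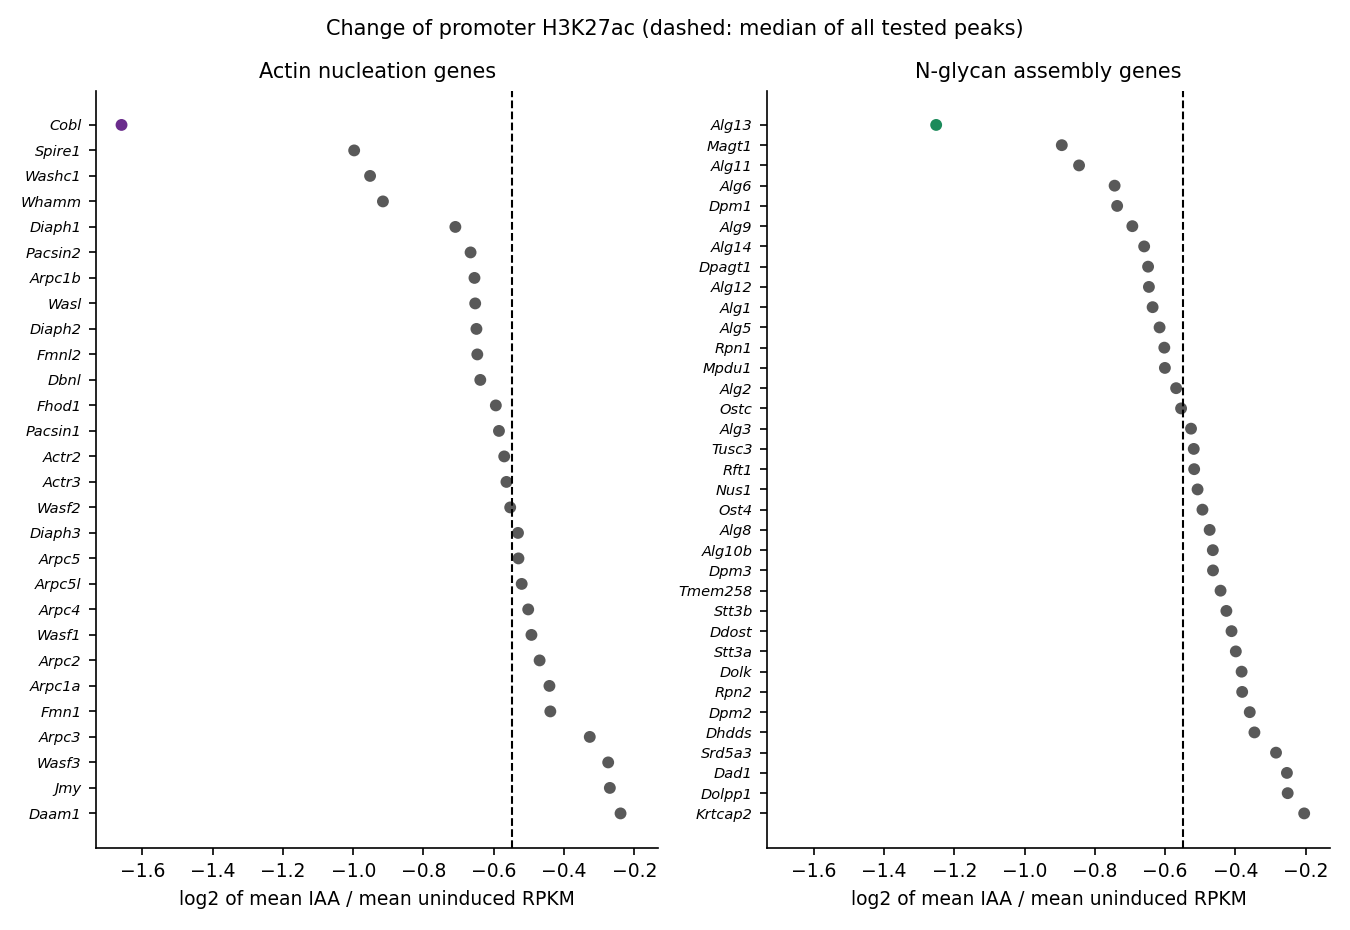
Change of promoter H3K27ac (log2 of the mean IAA over the mean uninduced RPKM, length-weighted over the gene's promoter peaks) for 28 actin nucleation and 35 N-glycan assembly genes, 1 point per gene, with the dashed line at the median change of all tested peaks. Cobl (purple) and Alg13 (green; all 3 of its peaks lie within 1 kb of an annotated start) are at -1.66 and -1.25, and the next genes are Spire1 at -1.0 and Magt1 at -0.89.

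For N-glycan assembly, 34 genes other than Alg13 had 39 promoter peaks, of which 29 (74.4%, against 68.2% of all tested peaks) were called lower and none higher by limma (0 at an unadjusted p under 0.05), with a median of -0.50. With centered libraries 1 of the 39 was called lower, against 1.97% of all tested peaks. Alg14, the membrane partner of ALG13, went from 2.96 ± 0.316 to 1.87 ± 0.121 RPKM (SD, n = 3), a change of -0.66 (adjusted p = 0.00612). Dpagt1, which adds the first N-acetylglucosamine, changed by -0.65 (adjusted p = 0.00435) and Alg1, which adds the first mannose, by -0.64 (adjusted p = 0.0222).

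The lowest of the list were Magt1, an oxidoreductase subunit of the oligosaccharyltransferase (-0.89, adjusted p = 0.00141), Alg11, a mannosyltransferase (-0.84, adjusted p = 0.00242), and Alg6, a glucosyltransferase (-0.74, adjusted p = 0.00225). The highest were Krtcap2 (-0.20, adjusted p = 0.292), Dolpp1, a dolichol pyrophosphate phosphatase (-0.25, adjusted p = 0.238), and Dad1, an oligosaccharyltransferase subunit (-0.25; longest peak -0.21, adjusted p = 0.369). The medians of both lists lay close to that of all tested peaks. Cobl and Alg13 stood at the end of their lists, and both were chosen by this contrast. For Alg13 that place rests on its internal pair, since the peak beside its start alone gave -0.78, less than Magt1 and Alg11. In the wider windows of gene body plus 20 kb, 88 of 120 actin nucleation peaks (73.3%) and 66 of 92 N-glycan peaks (71.7%) were called lower, against 68.2% of all tested peaks, with medians of -0.56 and -0.51.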

How the data were processed

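The 6 H3K27ac ChIP-seq libraries (3 uninduced, 3 IAA) were grouped by their sample labels. The authors aligned reads to GRCm38 with Bowtie2 2.3.4.3, removed duplicates, called peaks with MACS2 on pooled uninduced reads and deposited RPKM values made with DiffBind. Without an input or spike-in library, a change common to all peaks cannot be told from a smaller fraction of reads under peaks. The authors' per-condition RPKM columns equal the mean of the 3 libraries. With peak length as end minus start, 100% of values were whole multiples of 1 read (within 0.01), from which library sizes were recovered.

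Peaks at or above 0.5 RPKM in uninduced or IAA-treated cells (26457 of 31131) were tested with limma 3.58.1 (R 4.3.3; trend and robust) on log2(RPKM + 0.1), with Benjamini-Hochberg adjustment over all of them and a threshold of 0.05. limma was checked before use on simulated data in which few peaks changed and no library was shifted as a whole. That check does not cover a shift shared by most peaks. Peaks were annotated with GENCODE vM21, and sequences were read with pysam 0.24.0. Named genes were all peaks of the loci, the 3 steepest falls and the next 3, the 3 genes nearest in profile to each locus, and in each pathway list up to 3 genes with the lowest and 3 with the highest promoter change plus partners of Cobl and ALG13. The loci and lists were chosen with earlier results of these data known. Alternatives covered the pseudocount, threshold, scaling, window, peak weighting, limma settings, replicate block and leaving out each library.

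Once the median deviation of each library was taken out, same-numbered libraries of the 2 conditions did not deviate together across peaks. Pearson r was -0.01, -0.09 and -0.06 for replicates 1, 2 and 3. This comparison cannot see a shift shared by all peaks of a library. In that order, the share of reads in tested peaks was 7.08%, 6.87% and 6.58% in uninduced and 5.11%, 4.65% and 4.02% in IAA libraries. Pairing was therefore not settled. The main fit did not take the numbers as pairs, and a fit with them as a block is given below.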

Additional observations from a re-analysis of the deposited data

How the results depend on the processing

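No change at any of the 11 peaks or of either locus turned direction under the alternatives, but some came close to none after scaling. The loci were chosen for falls, so the kept direction of their steepest peaks is not a result. Scaling takes out the shift of the median peak. Centering libraries on the median peak gave a median change of -0.91 over the 11 peaks, -0.90 for the Cobl locus and -0.68 for Alg13, and quantile normalization gave -0.88, -0.88 and -0.66. At the intronic Cobl peaks starting at 12424432 and 12436149, centering left -0.02 and -0.09, beside SEs of 0.262 and 0.233 in the main fit. Quantile normalization left -0.01 and -0.08 at these peaks. The peak beside the Alg13 start kept -0.20 with centering and -0.19 with quantile normalization. Of the promoter peaks called lower (29 in each list), centering left 0 for actin nucleation and 1 for N-glycan assembly, and quantile normalization left 0 and 1. Restricting the windows to the gene body removed the upstream cluster, so that the Cobl locus changed by -1.24, by -0.67 relative to the median peak and by -0.58 relative to its flank, with 2 peaks called lower in place of 7. A pseudocount of 0.5 moved 7 of the 11 peaks by more than their spread between replicates, and with 0.01 the 3 steepest ranked at 2, 6 and 10. A window of 50 kb took in no further tested peak at either gene.

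Leaving out 1 library at a time gave medians over the 11 peaks of -1.60 to -1.38, Cobl locus changes of -1.54 to -1.35 and Alg13 locus changes of -1.36 to -1.14. Relative to the median peak these ranges were -0.95 to -0.87 and -0.72 to -0.63, and for Cobl against its flank -0.84 to -0.75. The count of Cobl peaks called lower ran from 6 to 8, and of Alg13 peaks it was 3 throughout. The counts in the actin nucleation list ran from 15 (without uninduced replicate 1) to 32, with 19 without uninduced replicate 2, while the share called lower over all tested peaks was 39.2% and 46.5% in these fits. In the N-glycan list they ran from 14 (without uninduced replicate 1) to 33, with 16 without uninduced replicate 2 and 19 without IAA replicate 3, where 54.4% of all tested peaks were called lower.

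The replicate number as a block gave -1.46 over the 11 peaks, -1.48 for the Cobl locus and -1.26 for Alg13, with 8 Cobl and 3 Alg13 peaks called lower and 31 and 30 promoter peaks in the lists. Over all tested peaks, the count of 18048 lower became 18898 with the block. Whether same-numbered libraries were pairs was not settled, because a shift of a whole library was not part of that comparison.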
